A study of Mus musculus with 11 samples.

Results

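Vomeronasal receptor genes encode the pheromone receptors of the mouse nose. The genes followed here were those of all probe sets on the Affymetrix Mouse Genome 430 2.0 array whose annotation gave only symbols beginning with Vmn1r or Vmn2r, which came to 44 of 45037 probe sets and to 47 of the 19324 genes named on the array. Of these probe sets 31 named V1R genes (33 genes) and 13 named V2R genes (14 genes), 36 named a single gene and 8 several. The V2R genes include a locus whose symbol marks a pseudogene. A further probe set that named 5 Vmn2r genes beside a predicted gene was left out. The RefSeq annotation of GRCm38.p6 lists 645 Vmn1r and Vmn2r loci, 355 of them protein coding, so that most of the family was not measured. RNA came from the main olfactory epithelium (MOE) of newborn mice (postnatal day 0) labelled as BALB/c, 5 wild type and 6 with a conventional knockout (KO) of Bcl11b, a gene for a zinc finger transcription factor. Both genotypes were offspring of heterozygous parents, and the KO lacks the gene in every cell and not in olfactory neurons alone. All 5 wild type and 4 KO preparations were from males, and KO 3 and KO 6 were from females.

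V1R and V2R proteins are G protein-coupled receptors that are expressed mainly in the vomeronasal organ, an enclosed structure at the base of the nasal septum that is separate from the MOE. Its apical neurons express V1Rs with the G protein subunit Gnai2, and its basal neurons express V2Rs with Gnao1, and both kinds signal through the channel Trpc2. The receptor-expressing neurons of the MOE mostly use odorant receptors, but a few V1R and V2R genes are also transcribed there. Bcl11b is known to be required for the development of vomeronasal neurons as well as for that of odorant receptor-expressing neurons.

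Signals were intensities on a linear scale in which each array had been scaled to GAPDH, and array medians lay between 56.6 and 86.3. Over the 11 arrays 7 of the 44 vomeronasal receptor probe sets (15.9%) had a mean signal of at least 20, the minimum set for testing, against 74.7% of all probe sets and against 32 of 47 probe sets that named only odorant receptor genes. The 7 were 5 V1R probe sets (Vmn1r44, Vmn1r65, Vmn1r148, Vmn1r171 and Vmn1r54) and 2 V2R probe sets (Vmn2r29 and Vmn2r1). The member just above the minimum was Vmn1r54, with a mean of 20.3, and the one just below it was Vmn2r10, with 14.5. Of the 44 probe sets 27 reached 20 on no array, and 405 of the 484 single values (83.7%) were under 20. The highest mean, 44.6 for Vmn1r44, was below the median of every array. Brightness also depends on the probes, so these signals give no order of expression among the genes, and a low signal does not show that a transcript was absent.

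**Figure D1:**
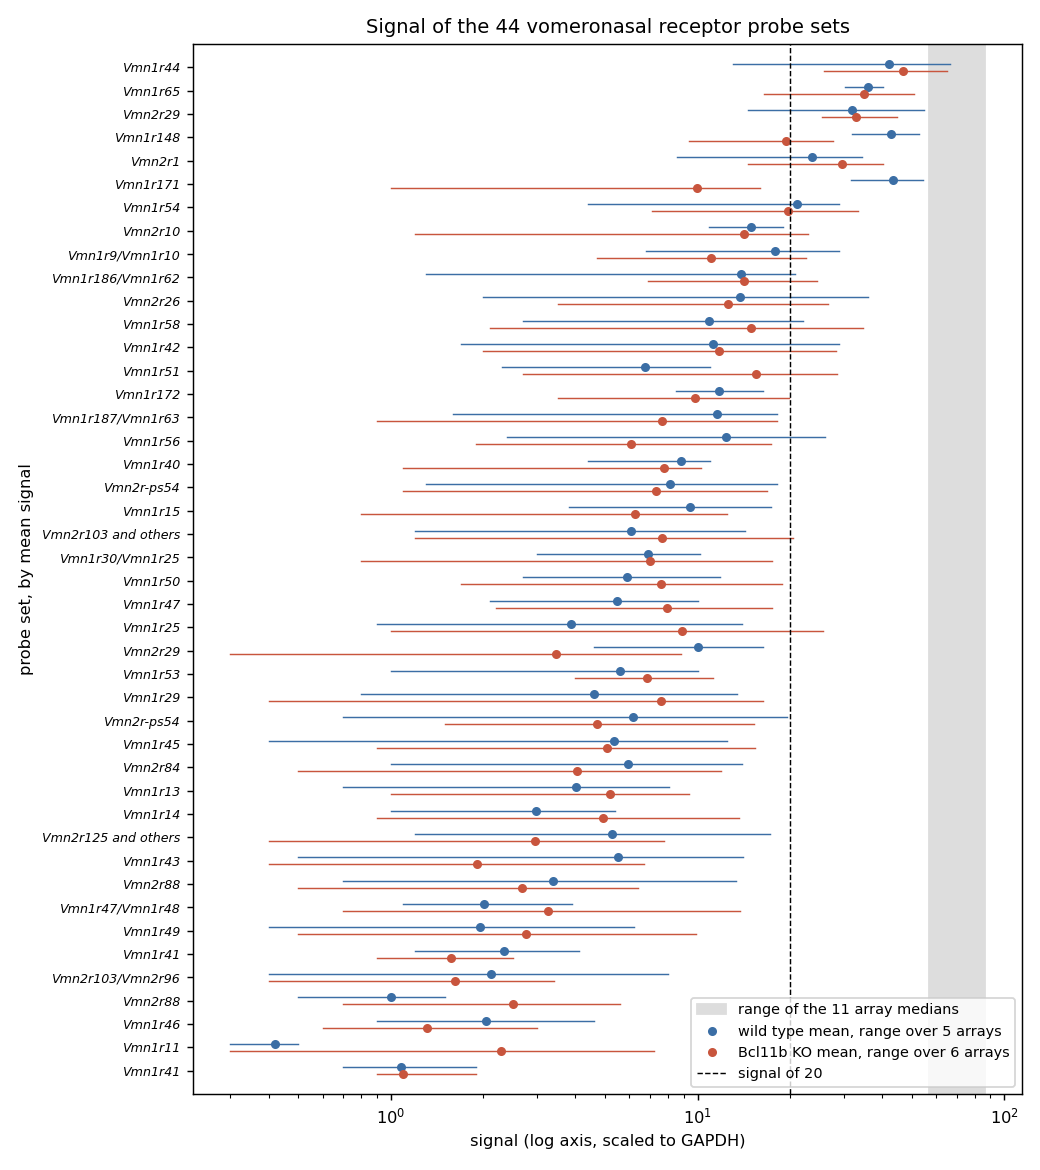
Mean signal (log axis, scaled to GAPDH) of each of the 44 vomeronasal receptor probe sets in wild type (blue, 5 arrays) and Bcl11b KO (red, 6 arrays), with lines spanning the lowest to the highest array. The grey band spans the array medians (56.6 to 86.3), all 44 means lie to its left, and 7 probe sets have a mean of at least 20 (dashed line) over the 11 arrays.

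The minimum was met by different routes. The mean was at least 20 in both groups for 4 of the 7 probe sets. It was at least 20 only in wild type for the other 3, Vmn1r148, Vmn1r171 and Vmn1r54, and no probe set reached it only in the KO. A probe set that passed through its wild type signal alone was bound to have a lower KO mean, so the direction of these 3 carries no weight as a count.

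Bcl11b itself, which checks the labels, read 2694.3 to 4122.7 on wild type arrays and 560.5 to 1249.8 on KO arrays, or -1.88 ± 0.17 on the log2 scale (limma estimate and SE, adjusted p = 1.2e-05), and all 4 of its probe sets fell.

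In the comparison of KO with wild type, 1 vomeronasal receptor probe set was lower in the KO, 0 were higher and 6 did not pass (limma, adjusted p under 0.05 over all 33662 probe sets tested). Of all probe sets tested 0.211% were called lower, 0.244% were called higher and 0.455% were called in either direction. At an unadjusted p under 0.05 there were 2 of the 7, against 6.92% of all tested. Both, Vmn1r171 and Vmn1r148, had reached the minimum through wild type alone. Without a minimum there were 3 of the 44, against 6.38% of all 45037. The median log2 change was -0.064 over the 7 and 0.047 over all probe sets tested, and without a minimum it was -0.021 over the 44 and 0.037 over all 45037. The 7 include the 3 that reached the minimum through wild type alone, so their median carries no weight beside that of all. The V1R gene Vmn1r171 and, short of the threshold, the V1R gene Vmn1r148 stood at the lower end, and the other 42 probe sets lay between -0.42 and 0.41 on the log2 scale.

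**Figure D2:**
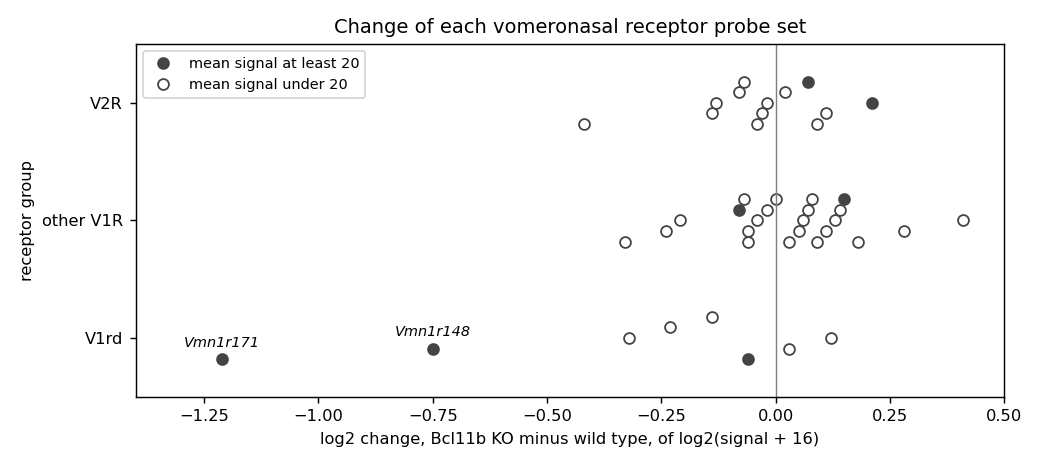
Log2 change (Bcl11b KO minus wild type, of log2(signal + 16)) of each of the 44 probe sets, in 3 rows for V1R genes of the V1rd subfamily, other V1R genes and V2R genes, with filled points for a mean signal of at least 20. Vmn1r171 (-1.21) and Vmn1r148 (-0.75) are the leftmost points, and the rest lie between -0.42 and 0.41.

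Vmn1r171, a V1R gene whose older name is V1rd7, fell in the KO. Its signal was 51.3, 34.1, 54.1, 31.6 and 45.9 on wild type arrays 1 to 5, and 1.0, 7.4, 7.2, 14.1, 16.0 and 14.0 on KO arrays 1 to 6. Every wild type array was above 20 and every KO array below it, with no overlap between 31.6, the lowest wild type value, and 16.0, the highest KO value. The wild type mean of 43.4 (n = 5) stood against 9.95 ± 5.73 (SD, n = 6) for the KO. The log2 difference was -1.21 ± 0.22 (SE; limma, adjusted p = 0.0159, 95% interval -1.68 to -0.74). It ranked 91st of the 33662 probe sets by p. Vmn1r171 had reached the minimum through wild type alone. With no minimum its change was -1.21 (limma, adjusted p = 0.0125 over all 45037 probe sets), where 0.115% of all were called lower. The change was -2.27 with a pseudocount of 1 (limma, adjusted p = 0.0947) and -0.54 with a pseudocount of 64 (limma, adjusted p = 0.0104), so that its size and its call depend on how dim signals are treated. Leaving out wild type 1, 3 or 5 ended the call as well, at -1.16, -1.15 and -1.19 on the log2 scale (adjusted p in limma of 0.061, 0.0777 and 0.0589).

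The other probe set whose groups did not overlap was that of Vmn1r148, a V1R gene formerly called V1rd14. Its signal was 46.6, 42.1, 52.6, 31.8 and 41.0 in wild type and 17.8, 13.7, 24.2, 27.7, 9.4 and 23.5 in the KO. The lowest wild type value, 31.8, was above the highest KO value, 27.7, although 3 of the KO arrays still reached 20. The means were 42.8 ± 7.67 (SD, n = 5) and 19.4 ± 6.98 (SD, n = 6), and the log2 change of -0.75 ± 0.20 (SE) did not pass (limma, adjusted p = 0.172, 95% interval -1.18 to -0.32 before adjustment). It passed with scaling on spiked controls, at -0.87 on the log2 scale (adjusted p in limma of 0.0475), under which the median change of all probe sets moved from 0.047 to -0.119. Among all 45037 probe sets the groups did not overlap in 1.03%, and in 0.462% with the KO lower, against 2 of the 44 vomeronasal receptor probe sets. Among those tested the shares were 1.29% and 0.573%, against the same 2 of 7, both of which had reached the minimum through wild type alone.

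Vmn1r171 and Vmn1r148 share a subfamily and a chromosome. Older gene names placed 8 of the 31 V1R probe sets in the V1rd subfamily, a group that was singled out here after the values had been seen and that is therefore described without a test. All 8 name genes of chromosome 7. Their median log2 change was -0.18, with 6 of 8 lower in the KO. For the other V1R probe sets these figures were 0.05 and 9 of 23, and for V2R probe sets -0.03 and 8 of 13. Vmn1r171 and Vmn1r148, which drew attention to the subfamily, are counted in the V1rd figures, so this contrast partly restates that choice. The 2 without overlap were V1rd probe sets, and Vmn1r65, the other V1rd probe set above the minimum, had equal group means within its spread (36 ± 3.94 and 35 ± 12.3). The 5 V1rd probe sets under the minimum ran from -0.32 for Vmn1r56 to 0.12 for Vmn1r58. Vmn1r171 lies between Vmn1r170 and Vmn1r172 in the gene order of chromosome 7. For Vmn1r172 the wild type arrays spanned 8.5 to 16.4 and the KO arrays 3.5 to 19.9, a log2 change of -0.14. V1rd genes resemble one another in sequence, and whether the probes of Vmn1r171 and Vmn1r148 also read other V1rd transcripts was not analysed here.

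**Figure D3:**
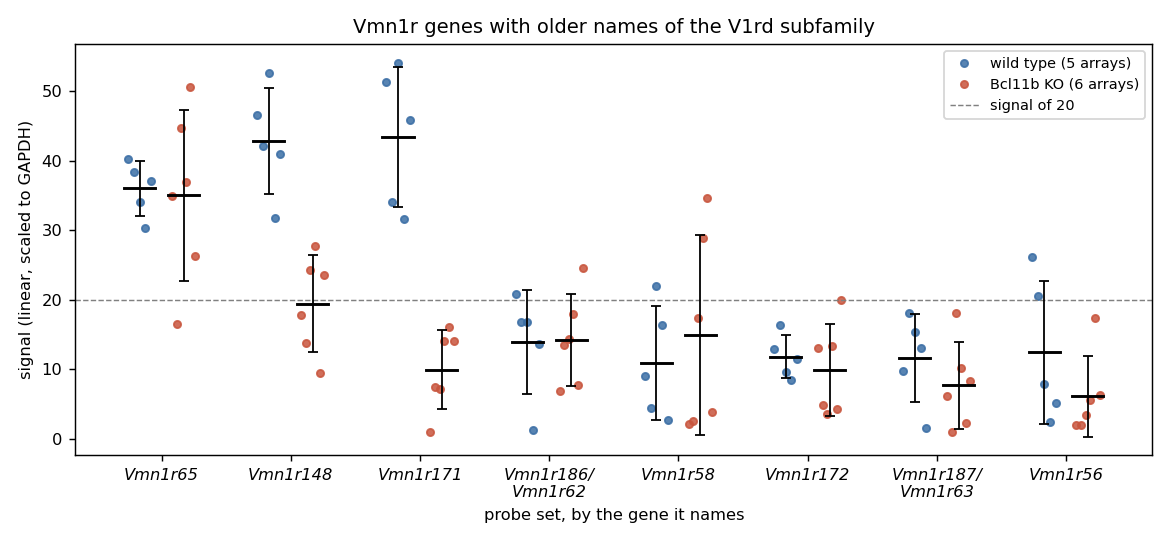
Signal (linear, scaled to GAPDH) on each array for the 8 probe sets with V1rd names, ordered by mean signal; points are arrays (blue, 5 wild type; red, 6 Bcl11b KO), horizontal bars are group means and vertical bars are SD. Vmn1r148 and Vmn1r171 are apart between the groups, and the other 6 overlap.

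To set the promoters of both genes side by side, the 250 bases before the annotated start are shown for Vmn1r171 (chr7:23631738-23631987, + strand), Vmn1r148 (chr7:22411981-22412230, + strand), Vmn1r65 (chr7:6011011-6011260, - strand) and Vmn1r172 (chr7:23658066-23658315, + strand). They were taken from RefSeq (GRCm38.p6, the C57BL/6J reference and not the BALB/c mice of the study) and are written 5' to 3' on the strand of the gene. Vmn1r65 and Vmn1r172 are included as V1rd genes whose groups overlapped. Vmn1r172 was under 20 on every array, so its overlap does not show that it was unchanged. Capitals mark the longest run of letters common to the windows of Vmn1r148, Vmn1r65 and Vmn1r172.
Vmn1r171: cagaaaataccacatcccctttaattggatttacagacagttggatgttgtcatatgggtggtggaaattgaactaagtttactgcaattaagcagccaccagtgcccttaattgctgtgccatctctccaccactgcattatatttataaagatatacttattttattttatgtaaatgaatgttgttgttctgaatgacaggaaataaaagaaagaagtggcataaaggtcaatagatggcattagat
Vmn1r148: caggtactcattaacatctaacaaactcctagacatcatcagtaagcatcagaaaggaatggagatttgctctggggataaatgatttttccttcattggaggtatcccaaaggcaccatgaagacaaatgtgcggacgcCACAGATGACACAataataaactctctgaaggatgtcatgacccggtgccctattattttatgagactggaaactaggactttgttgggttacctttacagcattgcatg
Vmn1r65: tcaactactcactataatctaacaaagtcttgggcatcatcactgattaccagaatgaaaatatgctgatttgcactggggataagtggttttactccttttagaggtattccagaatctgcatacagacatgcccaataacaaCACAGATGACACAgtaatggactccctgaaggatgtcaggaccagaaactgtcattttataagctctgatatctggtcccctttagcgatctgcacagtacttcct
Vmn1r172: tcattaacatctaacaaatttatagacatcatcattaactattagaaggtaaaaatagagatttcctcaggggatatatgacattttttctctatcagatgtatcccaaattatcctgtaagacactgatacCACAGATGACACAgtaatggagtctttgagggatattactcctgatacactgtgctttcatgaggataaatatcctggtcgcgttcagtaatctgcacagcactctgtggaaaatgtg

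In a global alignment 149 of 250 bases matched between Vmn1r171 and Vmn1r148, and over 147 pairs of a V1rd gene with a V1R gene of another subfamily the median was 148 (135 to 159). Vmn1r171 matched the other V1rd windows at 142 to 150 bases. Vmn1r148 matched Vmn1r172 at 178 bases and Vmn1r65 at 174. The groups overlapped for both genes, but Vmn1r172 was under 20 on every array, where a fall could hardly show. The capital run of 13 bases, CACAGATGACACA, lies 93 to 105 bases before the start in these 3 windows. Of 32851 such windows of annotated genes it occurs on either strand in 4, these 3 and that of the predicted gene Gm35118, and it is not in the window of Vmn1r171. Since the 3 windows were chosen to find it, the run is a description of their likeness. Among short motifs searched on both strands, TATAAA was in the windows of Vmn1r171, Vmn1r65 and Vmn1r172 and in 12.4% of all windows. TAATNA, a core that homeodomain proteins bind, was in those of Vmn1r148, Vmn1r65 and Vmn1r172 and in 24.3% of all. CCCNNGGG, the core of the site of Ebf proteins, was in none of the 28 V1R windows and in 11.8% of all. No motif of these 3 separated Vmn1r171 and Vmn1r148 together from Vmn1r65 and Vmn1r172, which is a description of these windows only. Whether the annotated starts are starts of transcription, and whether these sequences bear on the changes, was not tested. Windows were given for 39 of the 47 genes.

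The arrays were divided at the largest gap in the level of their poly-A labelling controls. This gave a set of higher controls (2 wild type, 3 KO) and a set of lower controls (3 of each). The split was read from the controls themselves, and the labels do not name it. The levels ran from 7.87 to 9.02 on the log2 scale, with the gap from 8.31 to 8.6. Such a cut divides any arrays, so it does not show distinct batches. Since no KO array of Vmn1r171 or Vmn1r148 overlapped a wild type array, a lower KO mean in each set follows from that separation, and the values below give sizes only. Within the higher set the Vmn1r171 mean was 42.7 in wild type and 14.7 in the KO (log2 change -0.92), and within the lower set it was 43.9 and 5.2 (-1.49). For Vmn1r148 the means were 44.4 and 20.2 in the higher set (-0.77) and 41.8 and 18.6 in the lower set (-0.74). Neither gene passed within a set (limma, adjusted p from 0.116 to 0.834), and with the set as a covariate the change was -1.24 for Vmn1r171 (limma, adjusted p = 0.00846) and -0.75 for Vmn1r148 (adjusted p = 0.133). The KO females (KO 3 and KO 6) read 7.2 and 14.0 for Vmn1r171, where the 4 KO males averaged 9.62, and 24.2 and 23.5 for Vmn1r148, where the males averaged 17.2. Among males alone the changes were -1.24 and -0.85 (limma, adjusted p = 0.0487 and 0.158). Without KO 2 and KO 3, whose GAPDH 3'/5' ratios were the highest at 2.42 and 2.70, they were -1.15 and -0.74 (limma, adjusted p = 0.0462 and 0.163).

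**Figure D4:**
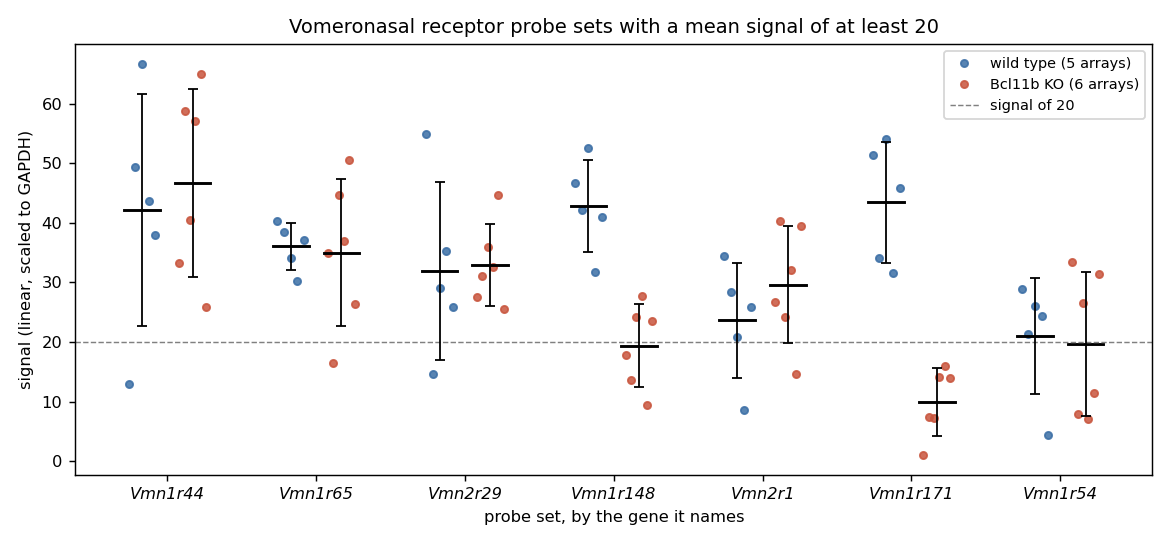
Signal (linear, scaled to GAPDH) on each array for the 7 vomeronasal receptor probe sets with a mean of at least 20; points are arrays (blue, 5 wild type; red, 6 Bcl11b KO), horizontal bars are group means and vertical bars are SD. The groups are apart for Vmn1r171 (wild type 31.6 to 54.1, KO 1.0 to 16.0) and Vmn1r148 (31.8 to 52.6 and 9.4 to 27.7) and overlap for the other 5.

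The remaining V1R probe sets tested did not pass. Vmn1r44, a gene of the V1ra and V1rb group, had signals of 13.0, 49.4, 66.7, 43.6 and 37.9 in wild type and from 25.9 to 64.9 in the KO, with a median of 48.7. Wild type 1 was its lowest array and wild type 3 its highest, so that every KO value lay within the wild type range. Its log2 change was 0.15 ± 0.26 (SE; limma, adjusted p = 0.985, 95% interval -0.40 to 0.69). Vmn1r65, with the older name V1rd6, had signals of 40.3, 38.4, 34.0, 30.3 and 37.1 in wild type and 34.9, 16.5, 44.7, 37.0, 50.6 and 26.3 in the KO. Its wild type arrays lay close together (SD 3.94), and its KO arrays lay on both sides of them (SD 12.3), with a log2 difference of -0.06 ± 0.21 (SE; limma, adjusted p = 0.99, 95% interval -0.50 to 0.37). Vmn1r54, once named V1ra9, had a wild type range of 4.4 to 28.9 and a KO range of 7.1 to 33.4, with a log2 difference of -0.08 ± 0.28 (SE; limma, adjusted p = 0.991, 95% interval -0.67 to 0.51).

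Of V2R genes, Vmn2r29 and Vmn2r1 were tested and neither passed. Vmn2r1 belongs to the small V2R family whose members are expressed together with other V2Rs in basal vomeronasal neurons. Its signals were 34.4, 28.3, 20.8, 8.6 and 25.9 in wild type and 26.7, 40.3, 24.2, 32.1, 14.6 and 39.5 in the KO, and the groups overlapped over most of their range. The log2 change was 0.21 ± 0.23 (SE; limma, adjusted p = 0.968, 95% interval -0.28 to 0.70). Vmn2r29 had signals of 54.9, 14.6, 29.0, 35.2 and 25.8 in wild type and 27.6, 31.1, 36.0, 32.6, 44.6 and 25.5 in the KO, where the highest and the lowest arrays were both wild type. Its log2 change was 0.07 ± 0.22 (SE; limma, adjusted p = 0.99, 95% interval -0.39 to 0.53). A second probe set of Vmn2r29, with a mean signal of 6.45, averaged 10 ± 4.66 (SD, n = 5) on wild type arrays and 3.45 ± 3.5 (SD, n = 6) on KO arrays. Its log2 change of -0.42 was the lowest among the probe sets under the minimum, and it did not pass when all probe sets were tested (limma, adjusted p = 0.627), so the 2 probe sets of this gene differed in direction.

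The other 36 probe sets under the minimum had log2 changes of -0.33 to 0.41. Counting Vmn2r29 with them, 19 of the 37 had a lower and 18 a higher estimate in the KO. The highest was that of Vmn1r51, whose 5 wild type arrays spanned 2.3 to 11.0 and whose 6 KO arrays spanned 2.7 to 28.5.

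Vomeronasal neurons express further genes for transduction, adhesion and receptor partners, and of 31 such genes, Bcl11b left out, 18 had a probe set of their own and 12 were tested, with 6 estimates lower and 6 higher in the KO and a median log2 change of 0.003. Of these 12, 0 passed (limma, lowest adjusted p = 0.356), where 0.455% of all probe sets tested did, and 1 had an unadjusted p under 0.05, where 6.92% of all did. Counts this small do not set the list apart from all probe sets. The 12 include genes that many other cells of the nose also express. Trpc2, the cation channel of vomeronasal transduction, averaged 106 ± 26.8 (SD, n = 5) on wild type arrays and 103 ± 33.2 (SD, n = 6) on KO arrays. Its log2 difference was -0.05 ± 0.21 (SE; limma, adjusted p = 0.992). Gnai2, the partner of V1Rs, and Gnao1, the partner of V2Rs, had log2 changes of 0.16 ± 0.12 and 0.05 ± 0.15 (SE; limma, adjusted p = 0.932 and 0.99). Gng8, a G protein gamma subunit of vomeronasal and immature olfactory neurons, had -0.21 ± 0.13 (SE; limma, adjusted p = 0.9). The genes of smallest p were Meis2, a homeodomain factor of apical vomeronasal neurons, with 0.49 ± 0.16 (SE; limma, adjusted p = 0.356), and Ano1, a calcium-activated chloride channel, with 0.21 ± 0.11 (adjusted p = 0.817).

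**Figure D5:**
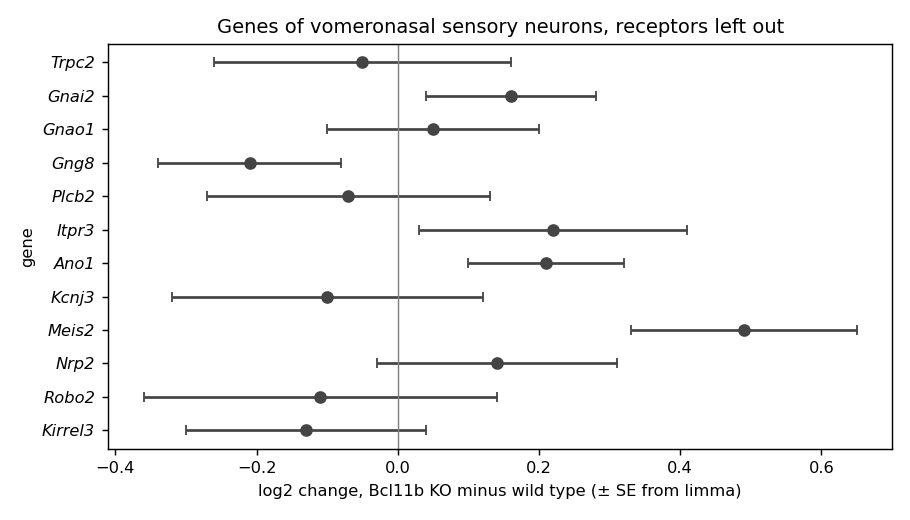
Log2 change (Bcl11b KO minus wild type, ± SE from limma) of the 12 genes of vomeronasal neurons that were tested. Estimates lie on both sides of 0, from -0.21 (Gng8) to 0.49 (Meis2), and none passed.

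The genes closest to the receptors themselves were dim. The formyl peptide receptors Fpr-rs3 and Fpr-rs4, the H2-M9 and H2-M10.1 proteins of basal vomeronasal neurons and Tfap2e, a transcription factor of basal neurons, were all under the minimum. The summed signal of these 5 was 24.6 to 106 on wild type arrays and 35.9 to 108 on KO arrays, and the KO maximum came from KO 5, where Tfap2e read 89.7 against 2.9 or less on each other array. H2-M10.1, which lies outside the rule for named genes and was chosen after its values were seen, had the highest mean of the H2-M genes (19.9), with 46.9, 46.3, 15.8, 9.1 and 25.7 in wild type and 11.6, 19.7, 6.2, 8.2, 3.7 and 25.6 in the KO. The groups overlapped, and its log2 change was -0.61. Of the 7 genes listed as markers of vomeronasal glands and non-sensory tissue, 4 were measured. Of these, 3 had a lower and 1 a higher estimate in the KO, and neither of those tested passed, where 0.455% of all probe sets tested did. Whether these genes are particular to vomeronasal tissue was not tested. Bpifb9b read 748.8 on KO 3 and 15068.9 or more on each other array. Obp2a ran from 28.9 to 1089.8 in wild type and from 15.5 to 6322.1 in the KO, where KO 2 and KO 5 read 6322.1 and 1792.4. Lcn3 and Lcn4 read 26.9 or less on every array. Without KO 2, KO 3 or KO 5 the Vmn1r171 change was -1.19, -1.18 and -1.28 (limma, adjusted p = 0.0274, 0.0337 and 0.0183). Without wild type 1, which had the highest wild type Obp2a signal (1089.8), it was -1.16 and did not pass (limma, adjusted p = 0.061). Whether the amount of gland tissue bears on the Vmn1r171 change was not tested.

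Markers of mature olfactory sensory neurons moved in the same direction as Vmn1r171. All 5 of Omp, Cnga2, Gnal, Adcy3 and Stoml3 had lower estimates in the KO, and Gnal and Stoml3 fell, by 0.69 ± 0.11 and 1.21 ± 0.16 on the log2 scale (limma estimates and SE, adjusted p = 0.00545 and 0.000794), although only 1 of the 3 probe sets of Gnal passed. Their summed signal was 9273 to 12498 on wild type arrays and 5162 to 7176 on KO arrays, with none of the 5 at 0. Markers of sustentacular cells (Cyp2g1, Ermn and Cbr2) summed to 18491 to 19516 and 17776 to 19701, and those of horizontal basal cells (Krt5, Krt14 and Trp63) to 1292 to 1695 and 1117 to 2002, with 0 of 6 genes passing. Over all probe sets tested 0.211% were called lower and 0.455% in either direction. With so small a share, 0 of 6 does not show that these cells were unchanged. The respiratory ciliated cell marker Foxj1 read 345 to 411 in wild type and 246 to 449 in the KO, and the erythroid markers Alas2 and Hba-a1 summed to 638 to 992 and 758 to 951. The part of the neuron markers in the fall of Vmn1r171 was not tested. In whole-tissue signals alone fewer cells of a type and less RNA per cell cannot be told apart. By in situ hybridization the paper counted fewer Omp-positive cells in the ventral MOE of Bcl11b KO mice, with no significant difference in the dorsal MOE.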

How the data were processed

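RNA of whole MOE was hybridized to Affymetrix Mouse Genome 430 2.0 arrays, 1 per preparation. The deposited values are intensities on a linear scale, 1 per probe set and array, which the authors scaled to GAPDH in the GeneChip operating software (GCOS, version not given in the sources used here). The GAPDH probe set reads 10000 on every array. Detection calls were not used here. Groups, replicate numbers and sex are those of the labels.

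Genes were taken from the platform annotation. All 47 matched RefSeq (GRCm38.p6) by Entrez identifier, and 0 symbols changed. Intensities were used as log2(signal + 16), which understates changes of dim probe sets. The 64 control probe sets and those with a mean under 20 were left out. The genotypes were set against each other with limma 3.58.1 under R 4.3.3 (lmFit, eBayes with an intensity trend, no covariate), and p-values were adjusted over all 33662 probe sets by the Benjamini-Hochberg method at 0.05. The fit was tested on simulated data. The p-values test the difference between genotypes against the spread between preparations, which limma moderates with the intensity trend. The number of arrays limits the precision.

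Receptors above the minimum could be named, with values per array for those past the threshold, the 4 of smallest p and the 4 of highest mean. Vmn2r10, Vmn1r51, Vmn1r56, Vmn1r58, Vmn1r172 and the second Vmn2r29 probe set lie under the minimum and outside this rule, and their choice came after seeing the values. In the vomeronasal neuron list Trpc2, Gnai2, Gnao1, Gng8, genes past the threshold and the 2 of smallest p were named, each by its brightest tested probe set. Members and lists were chosen with earlier results of these data known. Alternatives were other scalings, pseudocounts, minimum signals, variance models, covariates and left-out arrays. Leaving out KO 2 and KO 3 together was chosen after seeing the data.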

Additional observations from a re-analysis of the deposited data

Results flagged for a closer look

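Of the 26 groups of arrays behind the named genes, 1 held an array far from the rest. Vmn1r54 on wild type 5 had a signal of 4.4, or 4.35 as log2(signal + 16), against 21.3 to 28.9 on the other wild type arrays, a gap of 0.76 of the range of the group. Chance gives about 1 such array in 20 groups.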

How the results depend on the processing

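The count of vomeronasal receptor probe sets lower in the KO, 1 as reported, was 2 with scaling on spiked controls (Vmn1r171 and Vmn1r148) and 0 with a pseudocount of 1, with the replicate number as a block and within each of the sets of higher and lower poly-A controls. It was 0 to 1 when single arrays were left out, with 0 without wild type 1, 3 or 5. The count of higher ones was 0 throughout. Over all probe sets tested the calls in either direction numbered 153 as reported, 320 with spiked controls, 139 with a pseudocount of 1, 91 with the block, 31 and 39 within the higher and lower sets, and 103, 85 and 97 without wild type 1, 3 or 5. In Vmn1r171 the log2 change was -2.27 to -0.54 over 26 alternatives and passed in 19 of them (limma, adjusted p from 0.00465 to 0.667), and the fits that did not pass include those on the 5 and 6 arrays within a set. With the replicate block it was -1.26 (limma, adjusted p = 0.082). The numbers mark no shared origin, and same-numbered wild type and KO arrays correlated at -0.101, -0.45, 0.0456, -0.386 and -0.0105 in their deviations from the group means. With a minimum signal of 100 no vomeronasal receptor was left to test.

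Changes near 0 turned sign. With spiked control scaling Vmn2r29 was -0.06, Gnai2 -0.03 and Gnao1 -0.13, and Gnao1 was -0.0039 after quantile normalization. Array weights gave 0.04 for both Vmn1r54 and Trpc2, and the replicate block gave 0.0043 for Trpc2. Within the set of lower controls Vmn1r44 was -0.12, Vmn1r54 0.18, Trpc2 0.13 and Gnao1 -0.03, and within that of higher controls Vmn2r1 was -0.12. Without KO 2 and KO 3 Vmn1r65 was 0.02 and Trpc2 0.03. Leaving out single arrays gave -0.08 to 0.3 for Vmn1r44, -0.15 to 0.06 for Vmn1r65, -0.08 to 0.23 for Vmn2r29, -0.28 to 0.03 for Vmn1r54, -0.16 to 0.06 for Trpc2 and -0.0065 to 0.15 for Gnao1. Of the other vomeronasal neuron genes 0 to 1 passed as higher, the 1 being Meis2 without KO 3 (0.61; limma, adjusted p = 0.0488). The causes were not tested. The receptor signals lay below every array median on average, which limits the values of the receptors.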
